A study of Mus musculus with 4 samples.

Results

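Open chromatin was compared between the liver of a WT mouse and the liver of an Uhrf1hepKO mouse, as ATACseq peaks in 1 library of each genotype. Members were the peaks on chromosomes 1 to 19, without 3 to 8 Mb of chromosome 14, which left 10060 of 10758 WT peaks and 10117 of 10972 Uhrf1hepKO peaks, or 20177 of the 120823 peaks in the 4 deposited lists. A peak was called shared when it overlapped a peak of the other liver by at least 1 bp. This gave 6144 shared peaks in the WT list and 6152 in the Uhrf1hepKO list, 3916 peaks in the WT liver only and 3965 in the Uhrf1hepKO liver only. Each class was then described by features that the overlap did not use. These were distance to the transcription start site (TSS) of protein-coding genes, base composition, H2A.Z and the genes at which the peaks lay. Peak width and strength are also given, but they are tied to the overlap. Wide peaks overlap more readily, and a shared site had to be called in both libraries.

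Both mice were C57Bl/6 males of 8 to 12 weeks. The WT animal carried floxed Uhrf1 alleles (Uhrf1-Fl/fl) without Cre, and the Uhrf1hepKO animal carried Uhrf1-fl/fl with Alb:Cre, in which the albumin promoter drives Cre in hepatocytes. Both livers were also profiled for the histone variant H2A.Z by ChIPseq, which gave 4 libraries from 2 livers. The tissue was whole liver, so cells other than hepatocytes, such as Kupffer, endothelial, stellate and bile duct cells, were part of both samples, and fewer cells of a type and less accessible DNA per cell cannot be told apart. With 1 library per genotype there is no replicate error, no p-value can be given, and a difference between genotypes cannot be told apart from one between animals, libraries or depths. Intervals are 95% Wilson intervals over peaks or genes and cover counting error only.

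ATACseq uses the Tn5 transposase to insert sequencing adapters into DNA that is not wrapped in nucleosomes, so that reads pile up over accessible DNA. In a differentiated tissue the promoters of active genes, many of them in CpG islands, are the most regularly accessible sites, while accessible sites far from genes include enhancers, insulators and other elements. UHRF1 recognises hemimethylated CpGs at replicated DNA and recruits DNMT1, so that DNA methylation is maintained, and its loss in hepatocytes is known to leave the liver genome hypomethylated. A peak over 5 kb from a TSS is called a distal peak here, because the peak lists alone do not show which distal sites act as enhancers.

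The lists differed in ways that bear on every comparison. The fold of a peak is its enrichment over the background of its own library. The most frequent fold in the WT list was 3.52, held by 254 peaks, which stands for 8 reads against an expected 1.56, and the most frequent fold in the Uhrf1hepKO list was 3.33, held by 292 peaks, which stands for 9 reads against an expected 2.0. With the narrowest peaks, 121 bp in WT and 110 bp in Uhrf1hepKO, taken as the fragment lengths, these values correspond to an Uhrf1hepKO library about 1.42 times as deep as the WT library. The highest q was 0.0997 in the WT and 0.0993 in the Uhrf1hepKO list. Uhrf1hepKO peaks were narrower, with a median width of 206 bp against 233 bp, and had a lower median fold, 4.09 against 4.34. Folds are therefore compared within a list or as percentiles of a list.

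Promoter sequences of 4 genes are shown because they hold the strongest peak found in each liver alone and a member each of the hepatocyte and interferon groups. Each is the part of a peak upstream of the TSS, read from GRCm38 on the plus strand, and lies outside annotated exons of GENCODE vM21. Alb, which encodes serum albumin, had a peak only in the Uhrf1hepKO liver, shown over chr5:90460649-90460896, with capitals at letters of the C/EBP (TTGCNNAA) and HNF1 (GTTAATNAT) motifs, families of transcription factors that act in hepatocytes. Gbp7, an interferon-induced guanylate-binding GTPase, had a peak only in the WT liver, shown over chr3:142530089-142530312, with capitals at the letters of an interferon response element (GAAANNGAA). Dcbld2, a transmembrane receptor, and H2-Eb1, the beta chain of an MHC class II molecule, were the genes with the strongest promoter peak found in the WT liver only (chr16:58408298-58408442) and in the Uhrf1hepKO liver only (chr17:34305745-34305866), and capitals mark their CpGs. A match of letters is a description of the sequence, not evidence that a factor was bound.
Alb: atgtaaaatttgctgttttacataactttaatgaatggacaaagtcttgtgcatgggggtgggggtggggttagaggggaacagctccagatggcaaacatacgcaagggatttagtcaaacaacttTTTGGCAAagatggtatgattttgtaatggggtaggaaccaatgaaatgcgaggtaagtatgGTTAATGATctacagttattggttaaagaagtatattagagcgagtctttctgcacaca
Gbp7: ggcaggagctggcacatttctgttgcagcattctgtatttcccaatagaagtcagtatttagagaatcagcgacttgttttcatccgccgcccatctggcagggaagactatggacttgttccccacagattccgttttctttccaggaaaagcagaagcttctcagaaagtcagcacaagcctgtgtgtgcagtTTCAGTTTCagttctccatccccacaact
Dcbld2: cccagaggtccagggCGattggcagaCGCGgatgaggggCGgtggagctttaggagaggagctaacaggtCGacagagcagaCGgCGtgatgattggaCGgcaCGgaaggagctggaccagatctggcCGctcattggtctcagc
H2-Eb1: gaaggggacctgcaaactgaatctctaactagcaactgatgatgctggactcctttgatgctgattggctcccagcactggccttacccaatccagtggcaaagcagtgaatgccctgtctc
The Dcbld2 stretch held 10 CpGs in 145 bp, whereas the H2-Eb1 stretch held 0 in 122 bp.

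Shared peaks made up 61.1% of the WT list (60.1 to 62.0) and 60.8% of the Uhrf1hepKO list (59.9 to 61.8). They were wide, with median widths of 281 bp in the WT list and 254 bp in the Uhrf1hepKO list, against 180 bp for WT-only and 156 bp for Uhrf1hepKO-only peaks. They were also strong, and neither trait is independent of the overlap rule. The median fold was 4.78 for shared and 3.90 for WT-only peaks in the WT list, and 4.47 for shared and 3.68 for Uhrf1hepKO-only peaks in the Uhrf1hepKO list. Peaks found in 1 liver were thus weaker than shared peaks. Of WT-only peaks 48.7% and of Uhrf1hepKO-only peaks 43.8% had q at most 0.01, against 86.4% and 81.2% of shared peaks. They were seldom displaced copies of a peak in the other liver, since 120 WT-only peaks (3.06%) and 132 Uhrf1hepKO-only peaks (3.33%) had a peak of the other list within 1 kb.

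The share of peaks found in both livers rose with fold at promoters and at distal sites, but not to the same level. In the highest decile by fold, 98.0% of WT and 98.7% of Uhrf1hepKO peaks within 1 kb of a TSS were shared. Among distal peaks of the highest decile, over 5 kb from a TSS, 90.7% of WT peaks (86.9 to 93.4) and 79.8% of Uhrf1hepKO peaks (75.1 to 83.7) were shared, and these intervals did not overlap. At promoters the order was the reverse in the lower deciles: in the sixth, 85.1% of Uhrf1hepKO peaks (81.7 to 88.0) and 71.3% of WT peaks (67.4 to 75) were shared.

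**Figure D1:**
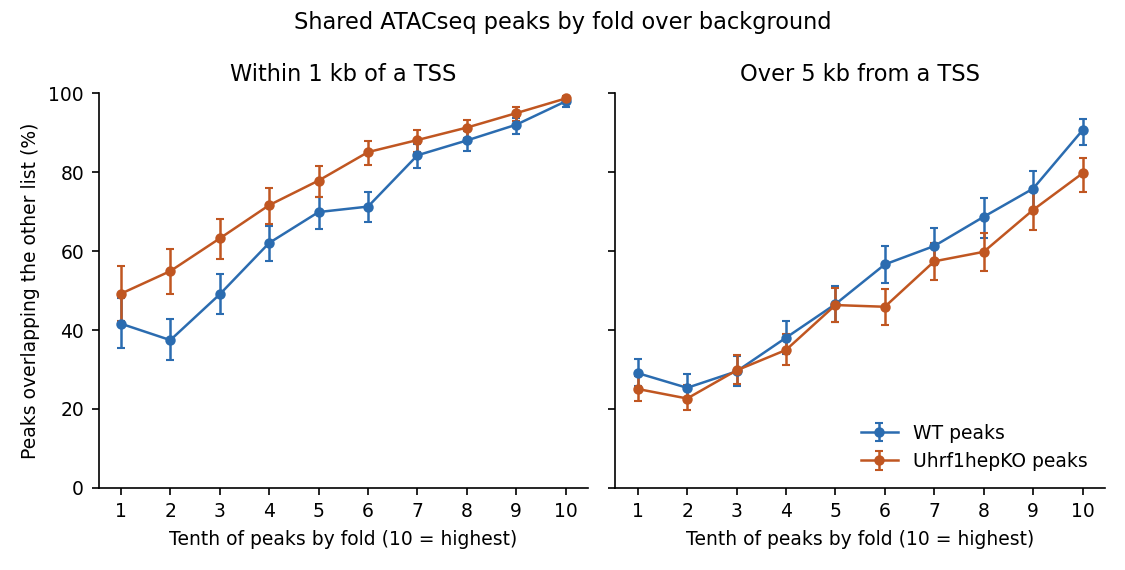
Percent of ATACseq peaks that overlapped a peak of the other liver (y axis), by decile of fold over background within each list (x axis, 10 the highest), for peaks within 1 kb of a TSS (left) and over 5 kb from one (right). Points are WT (blue) and Uhrf1hepKO (orange) peaks with 95% Wilson intervals. Promoter peaks of the highest decile were nearly all shared, whereas 79.8% of distal Uhrf1hepKO peaks of that decile were.

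Distance to the TSS separated the classes. Promoters, taken as sites within 1 kb of a TSS, held 60.3% of shared peaks in the WT list and 60.4% in the Uhrf1hepKO list. They held 1223 WT-only peaks (31.2%, 29.8 to 32.7) and 782 Uhrf1hepKO-only peaks (19.7%, 18.5 to 21.0). The Uhrf1hepKO-only peaks were thus the most distal class, with 72.5% over 5 kb from a TSS and 34.1% over 50 kb from one, against 62.2% and 28.3% of WT-only and 34.7% and 15.3% of shared WT peaks. Viewed from the sites, 80.8% of WT and 85.8% of Uhrf1hepKO peaks that covered a TSS were shared, compared with 46.6% and 42.6% of distal peaks. Within promoters, peaks of every class were centred close to the TSS, with median offsets of -21.5 bp for shared peaks of the WT list, 11 bp for WT-only and -9.25 bp for Uhrf1hepKO-only peaks. The lower promoter share of Uhrf1hepKO-only than of WT-only peaks was seen in all 14 settings tried, which changed the threshold, overlap, TSS set, peaks or regions.

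**Figure D2:**
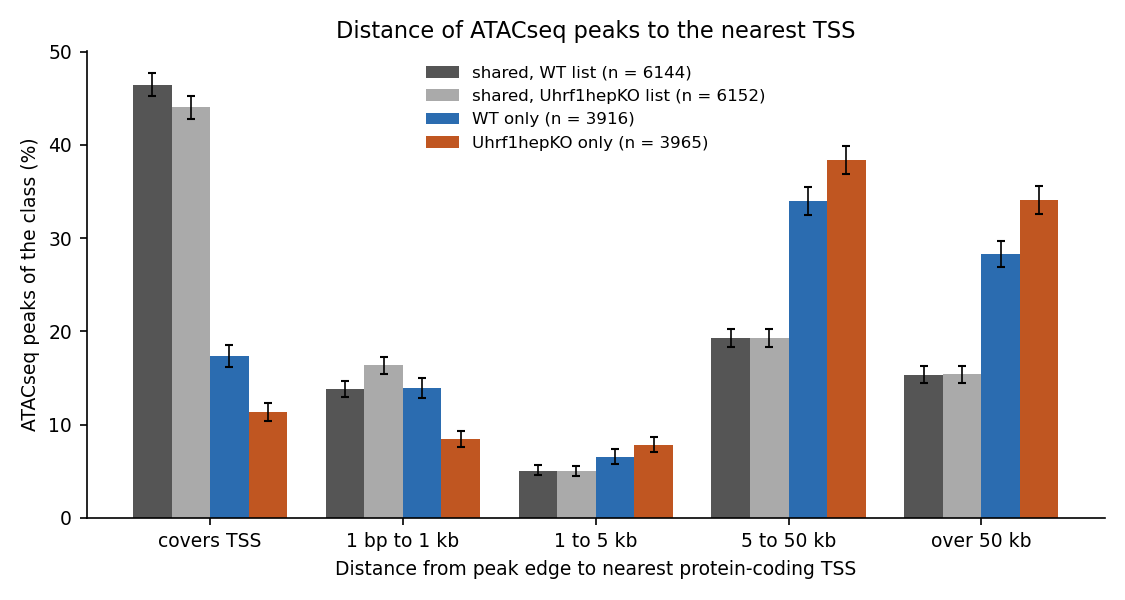
Percent of the peaks of each class (y axis) by distance from the peak edge to the nearest protein-coding TSS (x axis). Bars are shared peaks of the WT list (dark grey) and Uhrf1hepKO list (light grey), WT-only (blue) and Uhrf1hepKO-only peaks (orange), with 95% Wilson intervals. Of shared WT peaks 46.5% covered a TSS, against 17.3% of WT-only and 11.3% of Uhrf1hepKO-only peaks.

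Of 20704 protein-coding genes, 5692 (27.5%) had a promoter peak in the WT liver and 5196 (25.1%) in the Uhrf1hepKO liver. Both livers had a peak at 4371 genes. A promoter peak was called lost where only the WT liver had one, which was so at 1321 genes (6.38% of genes, from 1185 distinct peaks), and gained where only the Uhrf1hepKO liver had one, at 825 genes (3.98%, from 743 peaks). The Uhrf1hepKO list thus had fewer promoters with a peak, and losses outnumbered gains in all 13 settings tried. Its library had the higher estimated depth, and its peaks the lower median fold, 4.09 against 4.34. The part of depth and of enrichment in these counts was not tested. Lost and gained peaks were weak, with median folds of 4.03 and 3.77, against 4.97 and 4.63 for promoters with a peak in both livers. Of the genes, 47 lost and 52 gained ones had a peak of the other liver elsewhere within 5 kb. Near the 1 kb limit, 13 WT-only peaks lay 900 to 1000 bp and 16 lay 1000 to 1100 bp from a TSS, and the Uhrf1hepKO-only counts were 19 and 11.

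The strongest lost promoter peak was that of Dcbld2, with a fold of 7.18 over 164 bp, and the nearest Uhrf1hepKO peak was 319356 bp away. Arhgap22, an activator of GTP hydrolysis by RAC1, followed with a fold of 7.0, and Dhx36, a helicase that unwinds G-quadruplexes, with 6.73. Srm, which makes spermidine, had a lost peak of fold 6.55, Inpp5e, a phosphoinositide phosphatase of the primary cilium, of 6.51 and Rad21, a cohesin subunit, of 6.46. Metabolic genes were also among the 10 strongest: Akr1c13, an aldo-keto reductase, had a fold of 6.36, and Ptdss1, which makes phosphatidylserine, shared 1 peak of fold 6.25 with Mterf3, a mitochondrial transcription regulator. Lyrm9 was the last of them, with a fold of 6.22. All but the peak shared by Ptdss1 and Mterf3, which spanned 445 bp, were 125 to 226 bp wide, and the narrowest peak of the WT list spanned 121 bp.

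The strongest gained promoter peak was that of H2-Eb1, with a fold of 6.68 over 128 bp. Scap, the escort protein that carries SREBP to the Golgi when sterols are low, had a gained peak of fold 6.52 and the nearest WT peak was 27713 bp away. Enpp4, a nucleotide pyrophosphatase, followed with 6.37, Tcn2, which carries vitamin B12 in blood, with 6.31, Arl15, a small GTPase, with 6.28, and Espl1, the separase that cleaves cohesin at anaphase, with 6.23. Txndc17, a thioredoxin-like protein, Gm43951 and 4933427D14Rik shared 1 peak of fold 6.19, and Fam234a had 6.02. All but Tcn2, Arl15, Fam234a and the peak at Txndc17 were 140 bp wide or narrower, close to the narrowest peak of the list at 110 bp.

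Hepatocyte markers were more often gained than lost, in a short list with few peaks. Of 24 hepatocyte markers, 2 had a promoter peak in both livers, 1 was lost and 5 were gained, which is 4.17% and 20.8% of the list, read against 6.38% and 3.98% of all genes. The gained ones were Alb with a fold of 4.18, Trf, which encodes the iron carrier transferrin, with 3.76, Fga, a fibrinogen chain, with 3.62, Cyp7a1, the rate-limiting enzyme of bile acid synthesis, with 3.60, and Asgr1, a subunit of the asialoglycoprotein receptor, with 3.52. The lost one was Tdo2, which starts tryptophan breakdown, with 4.48. The nearest WT peak to the Alb peak was 99817 bp away, and to the Cyp7a1 peak 84562 bp. All but Alb lay under the median fold of the Uhrf1hepKO list, 4.09. With q at most 0.01 the counts were 1 lost and 3 gained, and among the 5000 peaks of highest −log10 p in each list 1 and 1.

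Hepatocyte transcription factors gave 5 promoters with a peak in both livers, 1 lost (3.03%) and 4 gained (12.1%) of 33. Over all genes 6.38% were lost and 3.98% gained. Gained were Cebpa, a factor that maintains hepatocyte identity, with a fold of 4.39, its relative Cebpd with 3.45, Nr0b2, the corepressor SHP that answers to bile acids, with 3.45, and Ppara, the fatty acid receptor, with 3.35. Onecut2 was lost, with a fold of 3.91. The counts depended on the peaks used. At the same minimum fold in both lists and with q at most 0.01, 1 was lost and 1 gained. Among peaks no weaker than the median of their list, 0 were lost and 4 gained, but not the same 4. Of the 4 named above only Cebpa lay above the Uhrf1hepKO median fold of 4.09. Nfia and Dbp had peaks in both livers. Their WT folds, 4.27 and 4.20, lay under the WT median of 4.34, so they counted as gained at that limit. Among the 5000 peaks of highest −log10 p the counts were 0 and 3. A longer list of 256 liver-enriched genes, taken from the study, had 15 promoters found in both livers, 19 lost (7.42%) and 20 gained (7.81%). Losses and gains were thus near equal in this list, unlike in the 24 hepatocyte markers. Of its 54 members with a peak in either liver 35.2% were lost and 37.0% gained. Over all such genes these were 20.3% and 12.7%. Among peaks no weaker than the median of their list, and among the 5000 peaks of highest −log10 p, 8 were lost and 6 gained. Its strongest lost members were Ugdh, which makes UDP-glucuronate, with 5.52, Tdo2, Hpx, which binds free haem, with 4.43, Crp, the acute phase protein, with 4.37, and Orm1 with 4.33. Its strongest gained members were Dcxr, a xylulose reductase, with 5.30, Uroc1, an enzyme of histidine breakdown, with 4.27, Alb, Ces1c, a carboxylesterase, with 4.05, and Mat1a, which makes S-adenosylmethionine in adult hepatocytes, with 4.0. Of the 256 genes 202 had no peak in either liver, and the median number of CpGs in 200 bp about the TSS was 3 for gained and for lost members, against 17 and 18 over all gained and lost genes.

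Interferon and viral sensing genes leaned the other way. Of 76 members, 14 had a promoter peak in both livers, 10 were lost (13.2%) and 2 were gained (2.63%). Over all genes 6.38% were lost and 3.98% gained. The lost ones were Trim21, an intracellular antibody receptor, with a WT fold of 6.02, Gbp7 with 5.86, Rsad2, the antiviral enzyme viperin, with 4.36, Myd88, the adaptor of Toll-like receptors, with 4.35, Samd9l with 4.28, Cmpk2, a mitochondrial kinase encoded beside Rsad2, with 3.86, Igtp and Irgm2, GTPases that share 1 peak, with 3.68, Bst2, which tethers virions, with 3.61, and Zbp1, a sensor of Z-form nucleic acid, with 3.25. The gained ones were Ifi27, with 4.26, and Irf2, a repressor of interferon genes, with 3.42. Of the 10 lost promoters, 9 carried H2A.Z within 1 kb in the WT liver and 9 in the Uhrf1hepKO liver. The members found in both livers included the strongest promoter peak of the WT list, that of the oligoadenylate synthetase-like gene Oasl1, with a fold of 15.5 in WT and 18.6 in Uhrf1hepKO. That peak was centred at −723 bp from the TSS in WT and was masked as a repeat over 90.5% of its length. The receptor Ifnar1 had folds of 6.34 and 4.11. Losses outnumbered gains in every setting tried, although they were 5 and 4 among peaks no weaker than the median of their list.

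**Figure D3:**
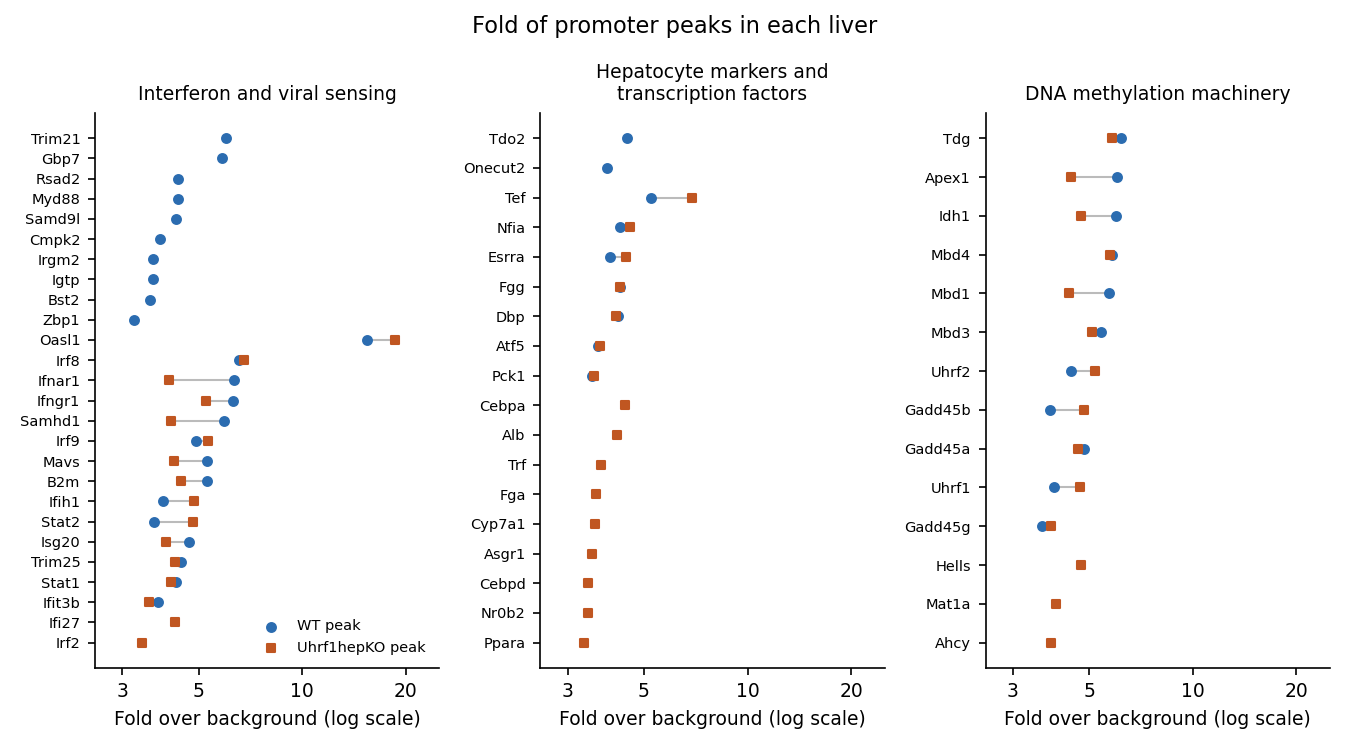
Fold over the background of its own library (x axis, log scale) for each promoter peak of the interferon and viral sensing genes (left), the hepatocyte markers and transcription factors (middle) and the DNA methylation machinery (right). Blue circles are WT and orange squares Uhrf1hepKO peaks, 1 library each, a grey line joins peaks of 1 gene in both livers, and genes run from lost at the top to gained at the bottom. Lost interferon genes reached a fold of 6.02 and gained hepatocyte genes 4.39, whereas Oasl1 stood at 15.5 and 18.6.

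The DNA methylation machinery had 11 promoters with a peak in both livers, 0 lost and 3 gained (12%) among 25 genes, against 6.38% lost and 3.98% gained over all genes. Of the 14 members with a peak in either liver 21.4% were gained, against 12.7% of all such genes. Hells, a chromatin remodeller needed for DNA methylation, had a gained peak of fold 4.74, Mat1a of 4.0 and Ahcy, which clears S-adenosylhomocysteine, of 3.87. Uhrf1 itself had a peak downstream of its TSS in both livers, with a fold of 3.96 in WT and 4.70 in Uhrf1hepKO, at chr17:56303985-56304264 and chr17:56304145-56304419. Cells without Cre are part of the tissue and the deleted exons are not given in the sources used here, so this site does not check the deletion. Germline genes, many of which are silenced by promoter methylation in the soma, had 0 promoters with a peak in both livers, 0 lost and 2 gained of 58 (3.45%, near the 3.98% of all genes). These were Dppa3, an oocyte factor that blocks UHRF1, where the peak of fold 4.17 was centred 1122 bp upstream of the TSS, and Zcwpw1, a meiotic histone reader, with 3.36. Imprinted genes had 6 promoters found in both livers, 1 lost, Igf2, with 3.91, and 5 gained of 56 (8.93%). Igf2r, the receptor that clears IGF2, had a gained peak of fold 4.53, Cd81 of 3.75, Mcts2 of 3.59, Gab1 of 3.57 and Osbpl5 of 3.38. With q at most 0.01, 1 of these 5 gains was left.

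Ribosomal protein, immediate early and cholesterol genes had a larger share of promoters with a peak in both livers than all genes did. Over all genes 6.38% were lost and 3.98% gained, and of genes with a peak in either liver 20.3% and 12.7%. On the latter measure 23.4% of ribosomal, 27.8% of immediate early and 14.8% of cholesterol genes were gained. Lost were 10.9%, 0% and 7.41%. Ribosomal protein genes had 42 such promoters of 78, with 7 lost and 15 gained (19%). The strongest gained were Rpl13 with 5.54, Rps28 with 5.25, Rpl11 with 4.45, Rpl35a with 4.39 and Rpl23a with 4.30, and the strongest lost Rpl28 with 4.19 and Rps26 with 4.14. The balance turned with peak width: among peaks of at least 200 bp, 10 were lost and 7 gained. Immediate early genes, which are induced within minutes of a growth signal, had 13 promoters found in both livers, 0 lost and 5 gained of 33 (15.2%). These were Ier2 with 4.31, Maff with 4.02, Ccn2 with 3.49, Myc with 3.44 and Junb with 3.30, and among peaks of at least 200 bp 2 were lost and 2 gained. Genes of cholesterol synthesis and uptake had 21 promoters found in both livers, 2 lost (4.76%) and 4 gained (9.52%) of 42. The order turned to 3 lost and 1 gained with q at most 0.01, and the counts were equal with q at most 0.05, at the same minimum fold in both lists and among peaks of at least 200 bp. The gained ones included Scap, Cyp7a1 and Npc1, which exports cholesterol from lysosomes, with 3.40, and lost were Sqle, a rate-limiting monooxygenase of the pathway, with 5.06 and the receptor Lrp1 with 3.70.

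Clock, DNA damage and proliferation genes had losses above gains, as did all genes. More of their promoters had a peak than over all genes, which raises their shares. Among genes with a peak in either liver, 17.6% of clock, 15.4% of DNA damage and 18.2% of proliferation genes were lost. Over all such genes 20.3% were lost. Gained were 11.8%, 12.8% and 10.9%, against 12.7%, so these lists lay near or below the share over all genes. Of 24 circadian clock genes, 12 had a peak in both livers, 3 were lost (12.5%) and 2 gained (8.33%), against 6.38% and 3.98% of all genes. Fbxl21 with 3.94 and Clock with 3.68 were among the lost, and Bhlhe41 with 4.80 and Nr1d1, the repressor REV-ERB alpha, with 3.44 were gained. Among peaks no weaker than the median of their list, the clock counts turned to 3 lost and 4 gained. Of 53 DNA damage and p53 target genes, 28 had a peak in both livers, 6 were lost (11.3%) and 5 gained (9.43%). The lost ones included Rnf8, a ubiquitin ligase at DNA breaks, with 4.67, Fancd2 with 4.22, Mdm2, which degrades p53, with 4.17, Gtse1 with 3.96 and Perp with 3.79. Gained were Fanca with 4.98, Sesn2 with 4.31, Rnf168, which acts with Rnf8, with 4.26, Plk3 with 3.70 and Tnfrsf10b with 3.63. Cell proliferation genes, a list the study drew from chromatin states modelled with the WT library, had 222 promoters found in both livers, 57 lost (10.1%) and 34 gained (6.00%) of 567. That list was chosen on the WT sample and is not independent evidence of a direction. Its strongest lost members were Kif3b, a kinesin, with 6.10, Id4 with 5.95, Iws1 with 5.35, Poli, a DNA polymerase of lesion bypass, with 5.33 and Spag5, which acts at the mitotic spindle, with 5.17. Its strongest gained members were Espl1, Pogz with 5.32, Cep164 with 4.99, Pold3, a subunit of DNA polymerase delta, with 4.86 and Slf2 with 4.84.

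**Figure D4:**
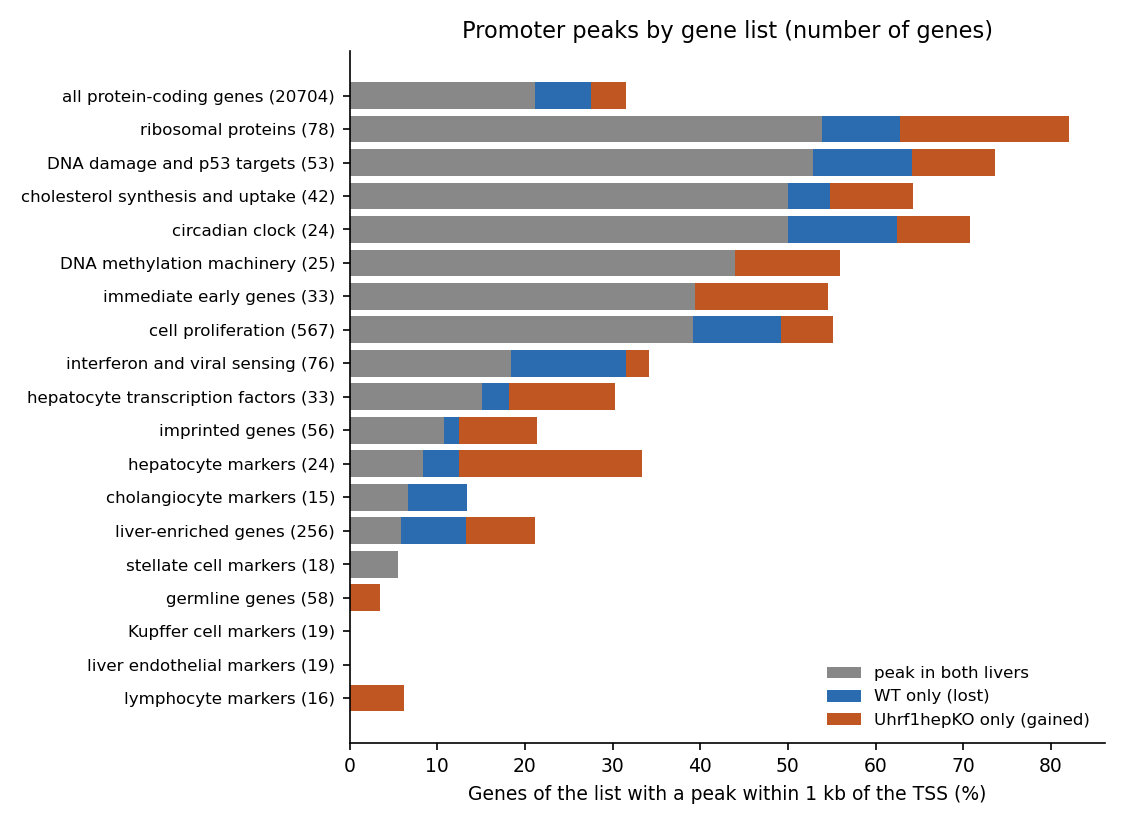
Percent of the genes of each list (x axis) whose promoter held a peak in both livers (grey), in the WT liver only (blue) and in the Uhrf1hepKO liver only (orange), with the number of genes in brackets. Of all protein-coding genes 6.38% were lost and 3.98% gained, whereas interferon genes had 13.2% lost and hepatocyte markers 20.8% gained.

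Markers of the other liver cells were nearly without promoter peaks. None of 19 Kupffer cell markers and none of 19 liver endothelial markers had a peak in either liver. Of 15 cholangiocyte markers, 2 had a WT and 1 an Uhrf1hepKO peak, with Sox9 lost at a fold of 3.56. Of 18 stellate cell markers, 1 had a peak in both livers, and of 16 lymphocyte markers, 1 was gained, Nkg7 with 3.74. Hepatocyte markers had 3 WT and 7 Uhrf1hepKO promoter peaks of 24, and 16 had none in either liver. Since Alb itself had no listed peak in the WT liver, the marker promoters do not settle the cell types of these samples.

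Promoters found in both livers were compared by rank, which cannot show a rise or fall common to all of them. Over 3709 pairs of promoter peaks the median difference in percentile of fold, Uhrf1hepKO minus WT, was -0.16 points, with quartiles of -13.9 and 11.1, and the percentiles had a Pearson r of 0.60 across pairs of 2 libraries. The greatest falls were at Zbtb14, from a fold of 6.16 to 3.35 (-82.1 points), Rab1b, from 5.95 to 3.34, Dync1i2, from 5.90 to 3.38, Sypl, from 5.85 to 3.39, and Hsbp1, from 5.76 to 3.39. The greatest rises included those at Arhgap11a, a regulator of RhoA, from 3.56 to 5.53 (76.6 points), the clock gene Per3, from 3.63 to 5.84, Neurl2, from 3.53 to 5.11, and Rpl36al, from 3.73 to 5.45. The median absolute difference over all pairs was 12.2 points. The strongest promoter peaks of the WT liver after Oasl1 were also in the Uhrf1hepKO liver: Lztfl1 had folds of 11.7 and 13.5, Parp6 of 11.3 and 8.89, and Palb2 and Dctn5, which share 1 peak, of 10.8 and 6.85.

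Base composition followed distance to the TSS. In 200 bp about the peak centre, promoter peaks had a median of 64% GC and 17 CpGs when shared in the WT list, 65.5% and 17 when found in WT only, and 63.5% and 16 when found in Uhrf1hepKO only. Distal peaks had a median of 3 CpGs in the shared and WT-only classes and 2 in the Uhrf1hepKO-only class, against 1 in 239097 windows placed every 10 kb along the genome. As shares of all genes in a group, promoters with a lost peak, a gained peak and a peak in both livers each rose with CpG content. Of 8103 genes with 15 or more CpGs in 200 bp about the TSS, 10.6% (9.95 to 11.3) lost and 5.99% (5.49 to 6.52) gained a peak. Of 7057 genes with 0 to 4 CpGs, 1.5% (1.24 to 1.81) lost and 1.39% (1.14 to 1.69) gained one. Of 5544 genes with 5 to 14 CpGs, 6.42% (5.81 to 7.10) lost and 4.37% (3.86 to 4.94) gained one. These are shares of all genes of a group, and 94.7% of genes with 0 to 4 CpGs had no peak in either liver. At 5 to 14 CpGs this was 67.0% and at 15 or more 46.7%. A peak in both livers was found at 2.39% of genes with 0 to 4 CpGs, 22.2% with 5 to 14 and 36.7% with 15 or more. In counts, 169 genes with 0 to 4 CpGs had a peak in both livers, 106 lost and 98 gained one. With 5 to 14 CpGs these were 1230, 356 and 242, and with 15 or more 2972, 859 and 485. Among genes with a peak, those with one in 1 liver only were thus relatively most frequent at 0 to 4 CpGs. Losses outnumbered gains in each group, with intervals that overlapped at 0 to 4 CpGs and did not at 5 or more. The intervals count genes, some of which share a peak, and do not measure the difference between libraries.

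Distal peaks found only in the Uhrf1hepKO liver lay in repeats more often than the other classes. Bases masked as repeats in the reference sequence made up more than 50% of 648 of 2873 Uhrf1hepKO-only distal peaks (22.6%, 21.1 to 24.1), of 330 of 2437 WT-only ones (13.5%, 12.2 to 15) and of 306 of 2129 shared ones in the WT list (14.4%, 12.9 to 15.9). The repeat-rich Uhrf1hepKO-only peaks had a median fold of 3.50 and 1 CpG in 200 bp, and 3.86% of them lay beside H2A.Z in the WT liver. The 20-base run that recurred most often among the repeat-rich distal peaks of these classes is shown as an example of their sequence, without a repeat annotation.
Recurring run: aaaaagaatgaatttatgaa
It was found on either strand in 74 Uhrf1hepKO-only distal peaks (2.58%, 2.06 to 3.22), 36 WT-only (1.48%, 1.07 to 2.04) and 16 shared ones of the WT list (0.75%, 0.46 to 1.22). The run was chosen from the repeat-rich peaks of these same classes, which numbered 648, 330 and 306. Its shares thus add no separate evidence of a difference between the classes. How reads that map to several copies were handled is not given in the sources used here for ATACseq, and its part in these shares was not tested.

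C/EBP letters were in 4.94% of shared WT promoter peaks, in 3.92% of WT-only promoter peaks (2.97 to 5.17) and in 7.54% of Uhrf1hepKO-only ones (5.89 to 9.61), against 5.68% of TSS windows. Over all promoter peaks of a list they were in 4.69% for WT (4.13 to 5.31) and 5.56% for Uhrf1hepKO (4.93 to 6.27), and these intervals overlapped. The palindromic CRE letters TGACGTCA, bound by CREB and ATF factors, were in 4.43% of shared WT promoter peaks, in 1.64% of WT-only ones (1.06 to 2.51) and in 3.58% of Uhrf1hepKO-only ones (2.49 to 5.13), against 2.02% of 200 bp windows about all TSSs. NRF1 letters, GCGCATGCG, were in 4.83% of shared WT promoter peaks, 2.21% of WT-only, 2.69% of Uhrf1hepKO-only and 1.81% of TSS windows. ISRE letters were in 4.50% of WT-only and 4.99% of Uhrf1hepKO-only promoter peaks, near the 4.65% of TSS windows. At distal sites C/EBP letters were in 16.2% of shared WT, 13.5% of WT-only and 14.5% of Uhrf1hepKO-only peaks, against 9.37% of genome windows, and the intervals of the one-liver classes, 12.2 to 14.9 and 13.3 to 15.8, overlapped. FOXA letters, TGTTTAC, were in 1.72% of WT-only and 1.92% of Uhrf1hepKO-only promoter peaks. For HNF4A (CAAAGTCCA) these shares were 0.25% and 0.38%, and for HNF1 0.08% and 0.51%, from 1 and 4 peaks. The intervals of the 2 classes overlapped for each of these motifs. Each count was made over 200 bp about the peak centre and on both strands, for 11 motifs, not all of which are given.

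H2A.Z, a histone variant that flanks open promoters, was measured in the same livers and was not used to define the classes. Within 500 bp of the peak, shared peaks of the WT list had H2A.Z in 77.8% of cases in the WT liver, WT-only peaks in 52.5% and Uhrf1hepKO-only peaks in 39%. The order was the same with H2A.Z of the Uhrf1hepKO liver, with 76.1%, 49.9% and 36.9%. At promoters the WT liver values were 93.5%, 86.6% (84.6 to 88.4) and 82.0% (79.1 to 84.5), and at distal peaks 51.6%, 36.4% (34.5 to 38.3) and 26.9% (25.3 to 28.6). Beside Uhrf1hepKO-only promoter peaks, 51 had H2A.Z in the WT liver only and 22 in the Uhrf1hepKO liver only, and beside WT-only promoter peaks 39 and 18. Promoters of genes with a gained peak had H2A.Z in the WT liver in 84.7% of cases. This was below the 88.5% of lost promoters and the 94.5% of promoters with a peak in both livers. Of genes with no peak in either liver 27.2% had it. Both livers had H2A.Z within 1 kb of the TSS at 85.1% of lost and 78.2% of gained promoters.

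**Figure D5:**
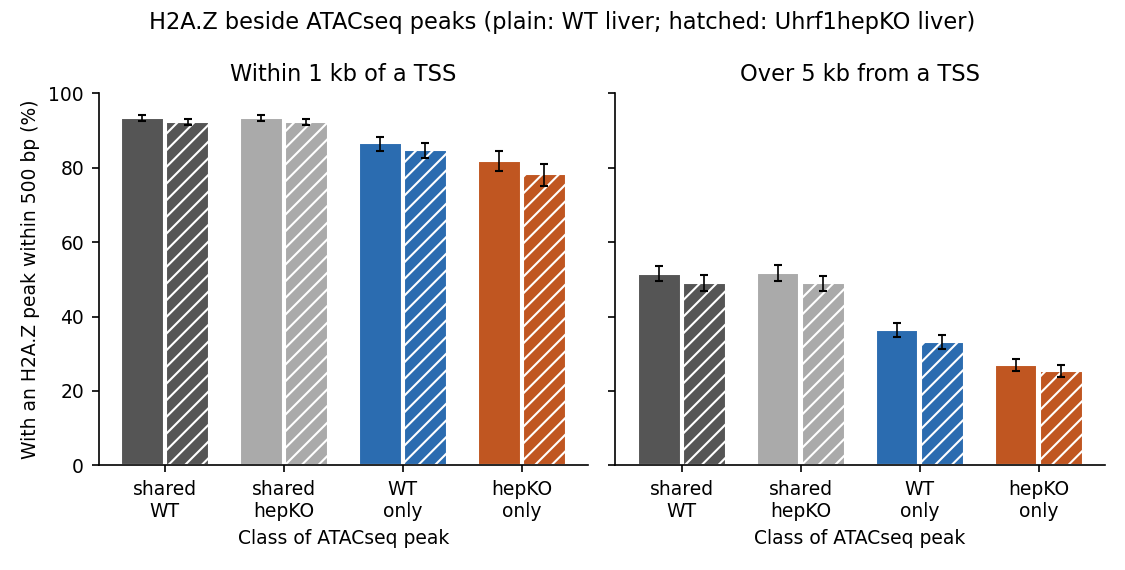
Percent of ATACseq peaks with an H2A.Z peak within 500 bp (y axis) for shared, WT-only and Uhrf1hepKO-only peaks (x axis), within 1 kb of a TSS (left) and over 5 kb from one (right). Plain bars use H2A.Z of the WT liver and hatched bars that of the Uhrf1hepKO liver, with 95% Wilson intervals. Distal Uhrf1hepKO-only peaks had the lowest share, 26.9% with WT and 25.3% with Uhrf1hepKO H2A.Z.

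The strongest distal peaks of 1 liver were short. In the Uhrf1hepKO liver they lay nearest to Elp6, with a fold of 16.1, Pknox1, with 13.3, Fhl4, with 12.5, Alkbh8, with 10.3, and Xcr1, with 9.61, and none had H2A.Z within 500 bp in either liver. In the WT liver they lay nearest to Rtl10, with 9.49, Skor1, with 8.78, Hunk, with 8.55, Arl4c, with 7.95, and Emp1, with 7.70, and those near Skor1 and Hunk had H2A.Z in both livers. The Pknox1 peak, at chr17:31570419-31570536, was masked as a repeat along its whole length, as was the Emp1 peak of the WT liver, and the Xcr1 peak was masked over 88.4% and the WT Hunk peak over 70% of its length. The Elp6 peak, at chr9:110281250-110281368, stood 23805 bp from that TSS and 23720 bp from the nearest WT peak. Nearest genes are given as positions and not as targets.

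One-liver peaks were unevenly spread among chromosomes. Uhrf1hepKO-only peaks made up 60.0% of those on chromosome 11, with 318 against 212 WT-only peaks, and 36.8% on chromosome 18, with 85 against 146. The other 17 chromosomes lay between 43.7% and 55.9%.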

How the data were processed

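ATACseq peaks of 1 WT and 1 Uhrf1hepKO liver were compared. The authors aligned single-end reads of 100 cycles to GRCm38.p4 with BWA-MEM, processed them with Picard and called broad peaks per library with MACS2 (-f BAMPE, p of 0.05). The highest q in the deposited lists was 0.0997, so they end near a q of 0.1. The MACS2 version, a control library, a shift of reads for Tn5 and, for ATACseq, duplicate removal are not given in the sources used here. The use of a paired-end setting with single-end reads can change the fragment length and so the width of peaks. FastQC 0.11.5, Trimmomatic, BWA and Picard are named in the submitters' processing notes. The deposited ATACseq values are a fold (a ratio over the background of the same library) and −log10 p and −log10 q values, none of them scaled between libraries. The deposited H2A.Z lists give a fold ratio for narrow peaks. No counts or library totals are in these lists. The relative depth was solved from the most frequent fold and its p under a Poisson background, with the narrowest peak taken as the fragment length.

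Peaks on chromosomes 1 to 19 were used, without 3 to 8 Mb of chromosome 14. The X and Y chromosomes, scaffolds and mitochondrial DNA held 319 WT and 336 Uhrf1hepKO peaks. Distances ran from the peak edge to the 5′ end of the nearest GENCODE vM21 protein-coding gene. Sequences came from the RefSeq copy of GRCm38 (p6, whose chromosome coordinates are those of p4), with repeat masking as its lower-case letters. Motifs, GC and CpGs were counted in 200 bp about the peak centre or TSS, on both strands for motifs. Analysis used Python 3.11.15, numpy 2.4.6, pandas 2.3.3 and scipy 1.17.1, and the overlap, distance and gene steps were tested on simulated data. No test was run, since each genotype had 1 library. Alternatives changed the overlap, threshold, list length, regions, TSS and window.

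Named genes were the 10 gained and the 10 lost with the highest fold, the gained and lost members of each list (all for lists of at most 40 genes, otherwise at least the 5 of highest fold each way), the 5 strongest distal peaks of each one-liver class, the 5 shared promoters strongest in WT, the 5 with the greatest rise and fall in percentile, Uhrf1 and Alb. Some genes that this rule names are not reported here. The recurring run and the split by CpGs were chosen after values were seen. The members, lists and tests were chosen with earlier results of these data known. The liver-enriched and cell proliferation lists came from the study's supplementary data, as gene names only. Over the 18 lists, 52 entries had no protein-coding gene in the regions used.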

Additional observations from a re-analysis of the deposited data

Results flagged for a closer look

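The region of chromosome 14 from 3 to 8 Mb, left out of the main comparisons and included only in 2 alternative settings, held 519 ATACseq peaks in the Uhrf1hepKO list and 379 in the WT list. It drew attention because it is data outside the main comparison, in which the Uhrf1hepKO liver had more peaks than the WT liver. The difference was not tested, with 1 library per genotype.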

How the results depend on the processing

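With overlap of at least 50% of both peaks, 48.9% of WT and 48.6% of Uhrf1hepKO peaks were shared, and 37.8% of WT-only and 29.1% of Uhrf1hepKO-only peaks lay within 1 kb of a TSS. With q at most 0.05, 64.3% of Uhrf1hepKO peaks were shared and 34.1% of WT-only peaks lay at promoters. With q at most 0.01 the shared shares of WT and Uhrf1hepKO peaks were 63.4% and 68.0%, and the promoter shares of shared WT, WT-only and Uhrf1hepKO-only peaks 63.9%, 41.7% and 26.3%. In the same order these were 64.9%, 64.5%, 67.2%, 49.9% and 36.2% at or above the median fold, and 65.64%, 65.62%, 65.2%, 50.9% and 34.9% for the 5000 peaks of highest −log10 p. The promoter share of shared WT peaks was 58.1% with 3 to 8 Mb of chromosome 14 and 58.0% with X and Y as well. With the 5′ ends of all coding transcripts the promoter shares were 65.0%, 35.0% and 23.4%. Alternatives chosen after the data were seen gave 56.9%, 65.1%, 70.3%, 48.2% and 35.7% for peaks of at least 200 bp, and 57.1%, 67.1%, 63.0%, 33.9% and 22.0% at the same minimum fold in both lists. Without peaks over 50% repeat-masked 63.6% of Uhrf1hepKO peaks were shared, and the promoter shares were 63.8%, 33.9% and 23.5%. The cause of these moves was not tested. Lost genes ranged from 1000 to 1538 and gained genes from 638 to 1041, all within 1.5 times the main counts. Each limit was applied to both lists before promoters were called, so a promoter shared in the main lists could count as lost or gained. No paired analysis was possible because each genotype had 1 library and no value came from a test, and no replicate could be left out. Depth limits the weak peaks: a promoter with no listed peak is not shown to be closed.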
